A study of Homo sapiens with 6 samples.

Results

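BiP and the chaperones that work with it in the endoplasmic reticulum (ER) were described as a set of 10 genes, HSPA5, HYOU1, HSP90B1, DNAJB9, DNAJB11, DNAJC3, DNAJC10, SDF2L1, CRELD2 and MANF. They were chosen by name, as the HSP70 and HSP90 chaperones of the ER with its J-domain proteins and partners, and were read by every probe set annotated to 1 of these symbols alone. That gave 21 of the 54613 probe sets on the array and 10 of its 19775 genes. Of the 21 probe sets, 20 lay above the signal floor on all 6 arrays and entered the tests, and 1 of DNAJC10 (243635_at) lay at the floor on every array. A further 2 probe sets carry the symbols MIR3652 and HSP90B1 together and were left out by the rule.

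RNA came from HMLE cells, an immortalised human mammary epithelial line, and each group was measured on a single Affymetrix U133 Plus 2.0 array. The Twist line carries a pBabe-Twist retrovirus, so that Twist, a transcription factor that drives epithelial-mesenchymal transition, is made from a vector, beside any made from the cells' own gene. The control line carries a pBabe-shGFP retrovirus, and both lines grew in the same mixed medium with serum, insulin, hydrocortisone and EGF. In each line 1 culture received Cmp302, a compound known here by its code name, at 5 µM, 1 at 10 µM and 1 the solvent DMSO, for 6 h by the titles and the protocol. The source names and treatment tags instead give 2 µM for 4 h and 2 µM for 8 h for the same samples. The groups are therefore called 5 µM and 10 µM as titled, and whether the step between them is of dose or of time cannot be told apart. With no replicate arrays, a difference between 2 arrays has no replicate check.

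BiP, the product of HSPA5, is the HSP70 of the ER lumen. It binds unfolded segments of secretory proteins in cycles of ATP hydrolysis that J-domain proteins start and nucleotide exchange factors end. When unfolded proteins build up, the sensors IRE1, PERK and ATF6 start the unfolded protein response, whose transcription factors XBP1, ATF4 and ATF6 raise the genes of this chaperone system. Factors of that response are known to bind short elements upstream of such genes, named ERSE, ERSE-II and UPRE, and ATF4 binds the element named CARE.

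The promoters are shown because several of the 10 genes carry the same elements close to the gene start. The 250 bases before the start were read from RefSeq (GRCh38.p14), in which all 10 genes were matched, and searched on both strands for ERSE as CCAAT and CCACG with any 9 bases between them, ERSE-II as ATTGG and CCACG with any 1 base between them, UPRE as TGACGTGG and CARE as TGATGNAAN. An ERSE match stood in 3 of the 10 genes (HSPA5, HSP90B1 and CRELD2), against 0.0806% of 27305 promoters of the same length. ERSE-II stood in 2 (HYOU1 and SDF2L1), against 0.0513%, and UPRE in 2 (HYOU1 and DNAJC10), against 0.667%. No CARE match was found in the 10 windows, against 3.18% of all promoters. HSPA5 has its ERSE at -66 to -48 on the strand of the gene. HSP90B1 has one at -194 to -176 on its own strand and one at -89 to -71 on the opposite strand, and CRELD2 one at -80 to -62 on the opposite strand. HYOU1 has ERSE-II at -185 to -175 and at -79 to -69, both on the opposite strand, and its UPRE match at -188 to -181 overlaps the first of them. SDF2L1 has ERSE-II at -188 to -178 and DNAJC10 has UPRE at -125 to -118, both on the opposite strand. The windows of DNAJB9, DNAJB11, DNAJC3 and MANF held none of the 4 strings, which says only that these letters are not in these windows. The sequences of the genes with a match follow 5′ to 3′ on the strand of the gene with matches in capitals, and DNAJB9 is added as a gene without one.
HSPA5: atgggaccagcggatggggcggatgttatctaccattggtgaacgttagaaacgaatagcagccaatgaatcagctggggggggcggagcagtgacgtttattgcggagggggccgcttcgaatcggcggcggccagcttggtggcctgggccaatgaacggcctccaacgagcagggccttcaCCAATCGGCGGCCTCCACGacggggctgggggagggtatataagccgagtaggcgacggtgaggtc
HYOU1: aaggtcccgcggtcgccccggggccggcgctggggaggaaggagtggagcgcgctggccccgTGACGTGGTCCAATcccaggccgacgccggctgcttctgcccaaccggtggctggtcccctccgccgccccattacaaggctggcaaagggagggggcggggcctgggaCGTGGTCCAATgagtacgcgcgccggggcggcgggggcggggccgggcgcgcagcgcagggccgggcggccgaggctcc
HSP90B1: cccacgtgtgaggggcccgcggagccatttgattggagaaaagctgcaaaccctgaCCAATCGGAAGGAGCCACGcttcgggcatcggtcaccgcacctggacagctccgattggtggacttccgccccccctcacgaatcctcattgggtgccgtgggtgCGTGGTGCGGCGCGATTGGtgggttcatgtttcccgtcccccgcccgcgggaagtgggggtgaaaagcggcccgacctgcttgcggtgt
SDF2L1: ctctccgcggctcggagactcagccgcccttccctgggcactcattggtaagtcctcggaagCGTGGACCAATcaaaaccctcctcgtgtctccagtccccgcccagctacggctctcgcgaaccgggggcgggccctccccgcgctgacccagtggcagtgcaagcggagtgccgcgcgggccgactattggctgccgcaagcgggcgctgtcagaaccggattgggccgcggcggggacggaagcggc
CRELD2: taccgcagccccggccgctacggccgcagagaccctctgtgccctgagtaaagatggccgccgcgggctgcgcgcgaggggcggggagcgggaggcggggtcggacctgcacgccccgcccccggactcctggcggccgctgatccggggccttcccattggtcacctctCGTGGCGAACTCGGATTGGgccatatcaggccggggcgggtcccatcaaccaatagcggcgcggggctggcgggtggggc
DNAJC10: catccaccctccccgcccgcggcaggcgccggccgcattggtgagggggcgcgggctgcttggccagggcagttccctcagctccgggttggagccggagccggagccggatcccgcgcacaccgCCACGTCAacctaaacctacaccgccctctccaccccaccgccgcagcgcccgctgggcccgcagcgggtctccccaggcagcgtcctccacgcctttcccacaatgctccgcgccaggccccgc
DNAJB9: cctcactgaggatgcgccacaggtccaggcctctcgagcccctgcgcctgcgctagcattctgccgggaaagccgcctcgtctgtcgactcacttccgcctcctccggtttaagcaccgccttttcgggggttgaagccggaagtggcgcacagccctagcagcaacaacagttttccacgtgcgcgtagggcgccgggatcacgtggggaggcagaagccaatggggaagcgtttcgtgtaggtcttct
The windows lie at chr9:125241344-125241593 on the minus strand for HSPA5, chr11:119057206-119057455 on the minus strand for HYOU1, chr12:103930160-103930409 for HSP90B1 and chr22:21642052-21642301 for SDF2L1. Those of CRELD2, DNAJC10 and DNAJB9 lie at chr22:49918384-49918633, chr2:182716007-182716256 and chr7:108569624-108569873, all on the plus strand like the 2 before them. A match is a description of the sequence, and binding was not measured. The genes were chosen by name from a system known to carry such elements, so their share beside that of all promoters is no independent support. Each of the 10 genes, with or without a match, rose in the Twist line on at least 1 probe set, and any link between the matches and the changes below was not tested.

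**Figure D1:**
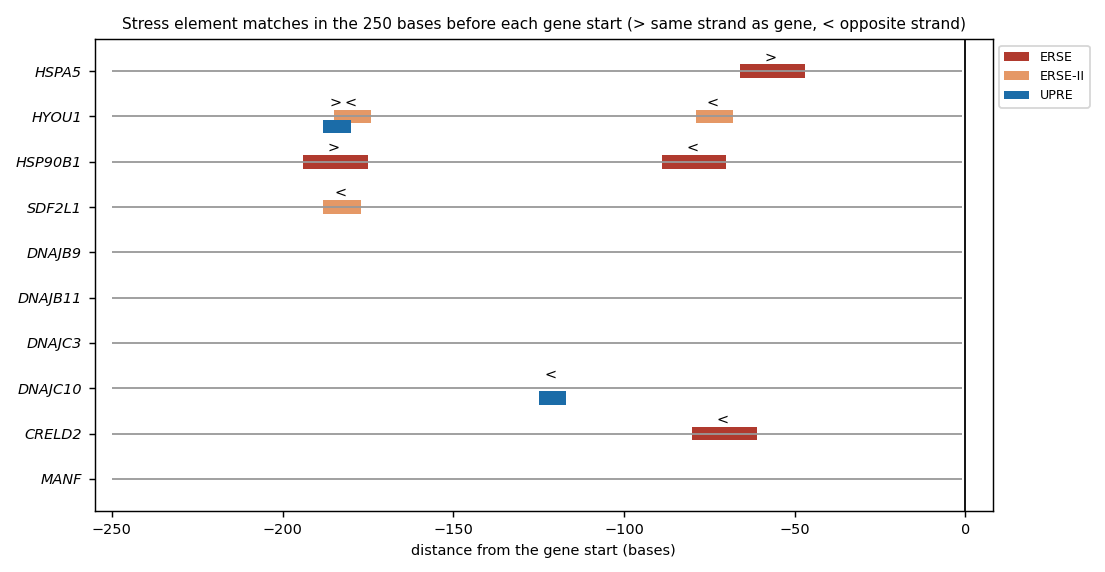
Matches to ERSE, ERSE-II and UPRE in the 250 bases before each gene start, with the distance from the start in bases on the x axis and 1 gene per row. Matches are drawn for 6 of the 10 genes, and 4 rows (DNAJB9, DNAJB11, DNAJC3 and MANF) are empty.

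Signals are log2 values, and probe sets of 1 gene or of different genes are not set against each other by level, since each probe set has its own brightness. The contrast between 3' and middle probe sets, taken here as a measure of RNA quality, varied between the arrays. For GAPDH and ACTB, the 3' probe sets minus those in the middle of the transcript averaged 0.95, 0.36 and 0.45 log2 units in the Twist-line arrays under DMSO, 5 µM and 10 µM, and 0.28, 0.45 and 0.83 in the control-line arrays, so the Twist-line DMSO array and the control-line 10 µM array lay above the other 4. The 3' minus 5' contrast was 1.07, 0.93 and 1.07 in the Twist line and 0.73, 0.68 and 1.02 in the control line, and did not set the Twist-line DMSO array apart. For GAPDH alone it was 0.43, 0.47 and 0.45 in the Twist line. Whether the 3' to middle contrast reflects RNA quality was not tested, and matching on RNA quality below means matching on that contrast. GAPDH itself, on 213453_x_at, the probe set with its widest change, read 12.32, 13.66 and 13.68 in the Twist line and 13.58, 13.19 and 12.77 in the control line. Over its 6 probe sets the change at 10 µM against DMSO ran from 0.41 to 1.37 in the Twist line, and over the 6 of ACTB from 0.29 to 0.71. In the control line the GAPDH changes at 10 µM ran from -0.80 to -0.12 and those of ACTB from -0.59 to 0.02. Both reference genes thus read higher with Cmp302 in the Twist line, as most of the chaperones did, and their part in the chaperone results was not tested. Of the chaperone probe sets with a called trend, HSPA5 211936_at (1.07) and HSP90B1 216450_x_at (1.08) changed within the GAPDH range at 10 µM. DNAJC10 221781_s_at (1.40) and MANF (1.41) lay just above it, and the others lay farther out. TWIST1 (213943_at) read 11.57, 11.96 and 11.35 in the Twist line and 10.70, 10.51 and 10.48 in the control line, in the direction of the labels. The Twist line lacked epithelial cadherin, CDH1, which lay at the floor of 3.71 on its 3 arrays against 13.24, 13.10 and 13.03 in the control line. The log2 of the summed linear signal of 7 epithelial markers, in which the brightest weigh most, was 8.68, 9.48 and 9.56 in the Twist line. In the control line it was 15.91, 15.73 and 15.54. KRT18, which read 8.26, 9.26 and 9.36 in the Twist line, was the 1 marker of the 7 with a called trend there (limma adjusted p 0.046), and its part in the chaperone results was not tested. For 6 mesenchymal markers the summed signal was 15.41, 15.55 and 15.44 in the Twist line and 13.87, 13.83 and 13.75 in the control line. Over the 3 treatments 5 of the 6 were called higher in the Twist line, while FN1 was not (0.26, limma adjusted p 0.34). Of 10 markers of blood, endothelial and fat cells, 7 lay at the floor on all arrays, CDH5, VWF, PTPRC and ADIPOQ among them. The log2 of the summed linear signal of the 10 ran from 10.87 to 11.16 in the Twist line and from 8.43 to 8.73 in the control line, through FABP4 and PECAM1.

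With Cmp302 each of the 10 genes rose in the Twist line on at least 1 probe set. A trend over the 3 arrays was called (limma, Benjamini-Hochberg adjusted p under 0.05 over 29283 probe sets) for 15 of the 20 probe sets, all higher. On its brightest probe set alone each gene was called except HSP90B1, DNAJC3 and DNAJC10 (limma adjusted p 0.09, 0.82 and 0.94). Among all probe sets tested 10.1% were called higher and 10% lower. The fit has 2 residual degrees of freedom, so each array matters: without the Twist-line 5 µM array 9 of the 10 genes had a call, and 17.5% of all probe sets. Without any 1 of the other 5 arrays the fit called 0 probe sets of any gene, so those fits say nothing about the members. The median trend of the 20 was 0.93 log2 units per level, against 0 over all probe sets. The sizes at 10 µM against DMSO ran from 4.33 log2 units for SDF2L1 to 1.07 log2 units (2.11-fold) for the brighter HSPA5 probe set among the 15 called. In the control line no trend was called for any member, with 1 of 20 at an unadjusted p under 0.05, and limma called 0% of all probe sets there, with 2744 at an unadjusted p under 0.05.

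Past 2-fold against DMSO, a difference of 1 log2 unit between 2 arrays, stood 12 of the 20 probe sets (8 genes) at 5 µM in the Twist line and 15 (10 genes) at 10 µM, all higher. All measured probe sets passed this fold upward in 4.35% of cases at 5 µM and 8.18% at 10 µM, and downward in 4.82% and 8.38%. None of the 20 passed it in the control line, in which 0.151% of all probe sets did so upward at 5 µM and 0.779% at 10 µM, and 0.0468% and 0.275% downward. The median change of the 20 at 10 µM was 1.85 in the Twist line and -0.14 in the control line. Most of the rise was reached by the lower level, as the median change of the 20 was already 1.29 at 5 µM. The median difference between the 10 µM and 5 µM arrays was 0.38, and 1 probe set, DNAJC3 235341_at, passed 2-fold between them with 1.01 (background 0.633%). In these whole-culture samples a change in the share of cells and a change in RNA per cell cannot be told apart.

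**Figure D2:**
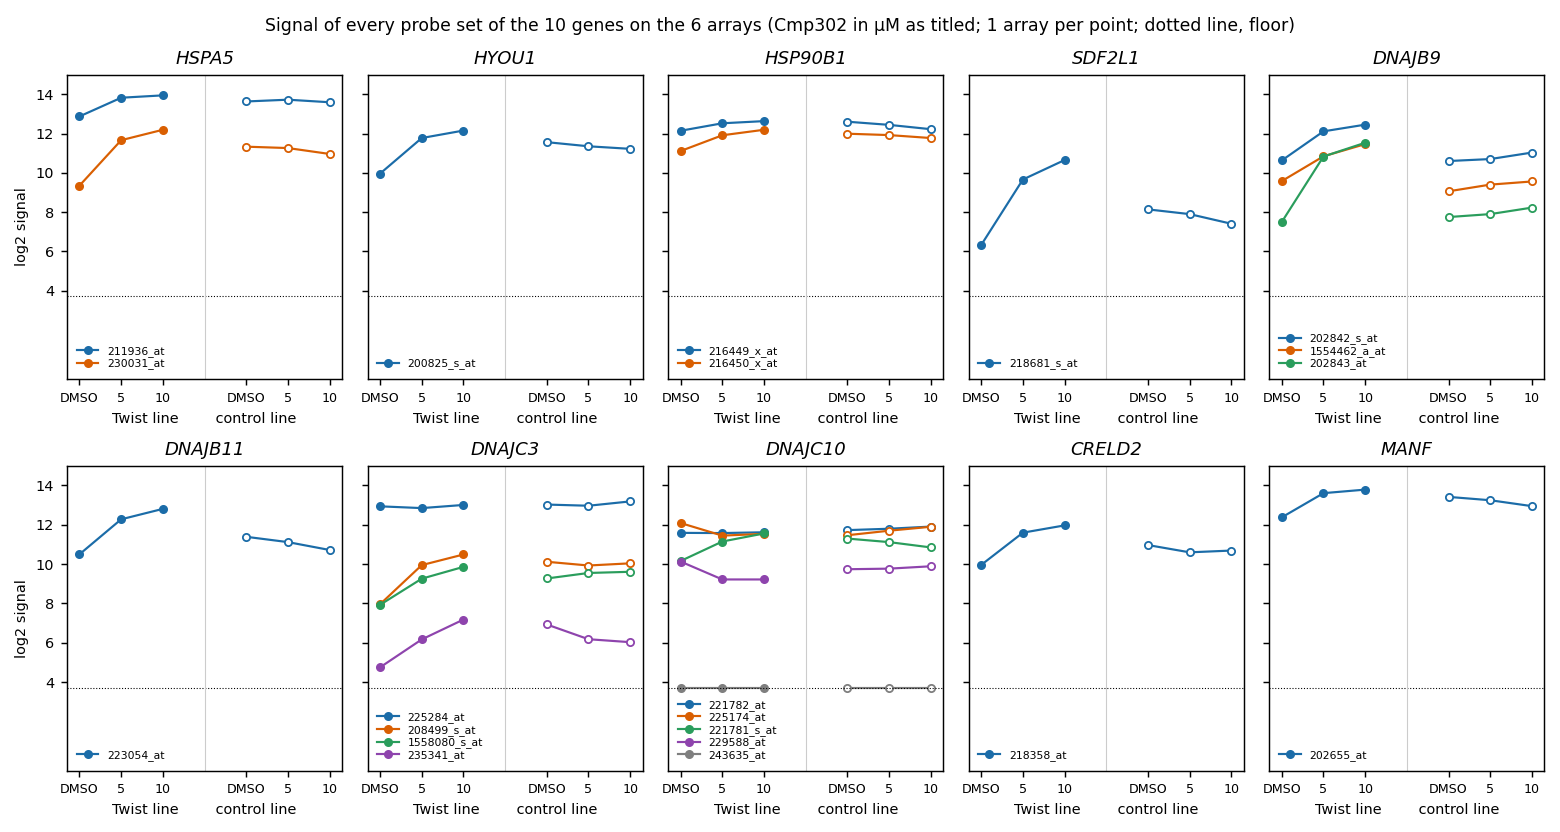
Log2 signal of all 21 member probe sets (y axis, dotted line at the floor) on the 3 arrays of the Twist line and the 3 of the control line by treatment (x axis), 1 array per point. The Twist-line DMSO points lie lowest for most probe sets, and the control-line points lie close together across treatments.

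HSPA5 encodes BiP itself. Its brighter probe set 211936_at read 12.87, 13.82 and 13.94 in the Twist line under DMSO, 5 µM and 10 µM, and 13.63, 13.72 and 13.59 in the control line. The second, 230031_at, read 9.35, 11.66 and 12.19 in the Twist line and 11.33, 11.26 and 10.96 in the control line. In both, the Twist-line DMSO array was the lowest of the 6 and the 2 treated Twist-line arrays were the highest. The trend in the Twist line was 0.54 ± 0.13 log2 units per level for 211936_at (SE, limma adjusted p 0.042) and 1.42 ± 0.23 for 230031_at (adjusted p 0.022). At 10 µM these come to 2.11-fold and 7.19-fold over DMSO, so the size of the BiP change depended on the probe set that read it. The smaller, 1.07 log2 units, lay within the GAPDH range of 0.41 to 1.37.

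HYOU1 encodes GRP170, a large HSP70-like protein that acts as a nucleotide exchange factor for BiP. Its only probe set, 200825_s_at, read 9.96, 11.77 and 12.15 in the Twist line and 11.56, 11.35 and 11.22 in the control line. The order was that of BiP, with the Twist-line DMSO array lowest and the treated Twist-line arrays highest. HYOU1 rose by 1.10 ± 0.19 per level in the Twist line (SE, limma adjusted p 0.025), and was 3.51-fold over DMSO at 5 µM and 4.58-fold at 10 µM.

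HSP90B1 encodes GRP94, the HSP90 of the ER, which folds integrins and Toll-like receptors. On 216450_x_at it read 11.11, 11.91 and 12.19 in the Twist line and 11.99, 11.92 and 11.77 in the control line, a trend of 0.54 ± 0.10 in the Twist line (SE, limma adjusted p 0.028) and 2.12-fold at 10 µM. On 216449_x_at it read 12.14, 12.52 and 12.63 in the Twist line and 12.60, 12.44 and 12.22 in the control line. The trend there was 0.25 ± 0.09 with an adjusted p of 0.09 and was not called. On both, the Twist-line DMSO array was the lowest of the 6 and the Twist-line 10 µM array the highest. Both carry the suffix that marks probes matching other transcripts, so the GRP94 values are uncertain. The change on 216449_x_at, 0.50 at 10 µM, was also of the size of the ACTB change. That on 216450_x_at, 1.08, lay within the GAPDH range of 0.41 to 1.37.

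The J-domain proteins start the ATPase cycle of BiP. DNAJB9 (ERdj4), which serves ER-associated degradation and represses IRE1, was the J-protein with the widest change. On 202843_at it read 7.50, 10.83 and 11.53 in the Twist line and 7.75, 7.90 and 8.23 in the control line, 16.4-fold over DMSO in the Twist line at 10 µM. On 202842_s_at the values were 10.63, 12.11 and 12.45 in the Twist line and 10.60, 10.70 and 11.03 in the control line. On 1554462_a_at they were 9.58, 10.84 and 11.46 in the Twist line and 9.06, 9.40 and 9.56 in the control line. Here, unlike for BiP and HYOU1, the Twist-line DMSO array lay within 0.52 log2 units of the control-line DMSO array on each probe set, and the treated Twist-line arrays lay at least 1.26 above the Twist-line DMSO array. The trends in the Twist line were 2.02 ± 0.33, 0.91 ± 0.16 and 0.94 ± 0.12 in the same order (SE, limma adjusted p 0.023, 0.026 and 0.017). DNAJB9 also read slightly higher with Cmp302 in the control line, by 0.44 to 0.51 at 10 µM, and no trend was called there.

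DNAJB11 (ERdj3), a co-chaperone that binds substrates and hands them to BiP, has 1 probe set, 223054_at. It read 10.50, 12.28 and 12.81 in the Twist line and 11.39, 11.12 and 10.72 in the control line. The treated Twist-line arrays stood above all others. The rise in the Twist line was 1.16 ± 0.17 per level (SE, limma adjusted p 0.020), or 4.98-fold at 10 µM, while the control line read 0.66 lower at 10 µM than under DMSO, with no trend called.

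DNAJC3 (p58IPK) is a J-protein of the ER lumen that is also known as an inhibitor of the kinase PERK, and its 4 probe sets disagreed. The brightest, 225284_at, read 12.94, 12.85 and 13.01 in the Twist line and 13.03, 12.97 and 13.19 in the control line, with a trend of 0.04 ± 0.09 in the Twist line (SE, limma adjusted p 0.82). All 6 arrays lay close together there. By contrast 208499_s_at read 7.96, 9.95 and 10.49 in the Twist line and 10.12, 9.93 and 10.04 in the control line. On 1558080_s_at the values were 7.93, 9.26 and 9.86 in the Twist line and 9.27, 9.55 and 9.61 in the control line. On 235341_at they were 4.75, 6.17 and 7.18 in the Twist line and 6.93, 6.18 and 6.03 in the control line. In these 3 the Twist-line DMSO array was the lowest of the 6, and the trends in the Twist line were 1.27 ± 0.20, 0.97 ± 0.13 and 1.22 ± 0.13 (SE, limma adjusted p 0.022, 0.018 and 0.014). Where each probe set lies in the transcript was not analysed here.

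DNAJC10 (ERdj5), a J-protein with thioredoxin domains that reduces disulfide bonds in proteins bound for degradation, also had probe sets that disagreed, here in direction. Its brightest probe set, 221782_at, read 11.59, 11.58 and 11.62 in the Twist line and 11.73, 11.80 and 11.91 in the control line, with a trend of 0.02 ± 0.08 in the Twist line (SE, limma adjusted p 0.94). On 221781_s_at it read 10.16, 11.15 and 11.56 in the Twist line and 11.30, 11.12 and 10.85 in the control line, a rise of 0.70 ± 0.11 per level in the Twist line (adjusted p 0.021). The other 2 measured probe sets read the opposite way. On 225174_at the values were 12.09, 11.45 and 11.54 in the Twist line and 11.47, 11.70 and 11.90 in the control line. On 229588_at they were 10.13, 9.22 and 9.22 in the Twist line and 9.74, 9.77 and 9.89 in the control line. In both, the Twist-line DMSO array was the highest of the 6 and the treated Twist-line arrays were among the lowest. Their trends, -0.27 ± 0.12 and -0.45 ± 0.14 (adjusted p 0.15 and 0.073), were not called. When the compound levels were pooled against DMSO (coded 0, 1 and 1) both were called lower, by 0.59 (adjusted p 0.032) and 0.91 (adjusted p 0.016) log2 units. The probe sets of DNAJC10 thus gave no single direction.

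SDF2L1 is a small ER protein that works with DNAJB11 and keeps misfolded proteins from aggregating. Its change at 10 µM was the widest of the 20 probe sets as measured. At 5 µM it equalled that of DNAJB9 202843_at, at 3.33, and after matching on RNA quality it was smaller than that one at both levels (2.55 against 3.85, and 3.66 against 4.48). On 218681_s_at it read 6.33, 9.66 and 10.65 in the Twist line and 8.14, 7.90 and 7.41 in the control line. The treated Twist-line arrays stood well above the other 4, and the Twist-line DMSO array was lowest. The trend in the Twist line was 2.16 ± 0.30 per level (SE, limma adjusted p 0.019), 10.1-fold over DMSO at 5 µM and 4.33 log2 units above it at 10 µM.

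CRELD2, an ER protein with EGF-like domains that is induced by ER stress and acts on disulfide bonds, read 9.96, 11.60 and 11.97 on 218358_at in the Twist line and 10.97, 10.60 and 10.69 in the control line. MANF, a secreted factor that binds BiP and holds its nucleotide, read 12.38, 13.61 and 13.79 on 202655_at in the Twist line and 13.42, 13.25 and 12.95 in the control line. In both genes the Twist-line DMSO array was lowest and the treated Twist-line arrays were highest. CRELD2 rose by 1.01 ± 0.18 per level (SE, limma adjusted p 0.026) and MANF by 0.71 ± 0.15 (adjusted p 0.033) in the Twist line, 4.04-fold and 2.67-fold over DMSO at 10 µM.

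**Figure D3:**
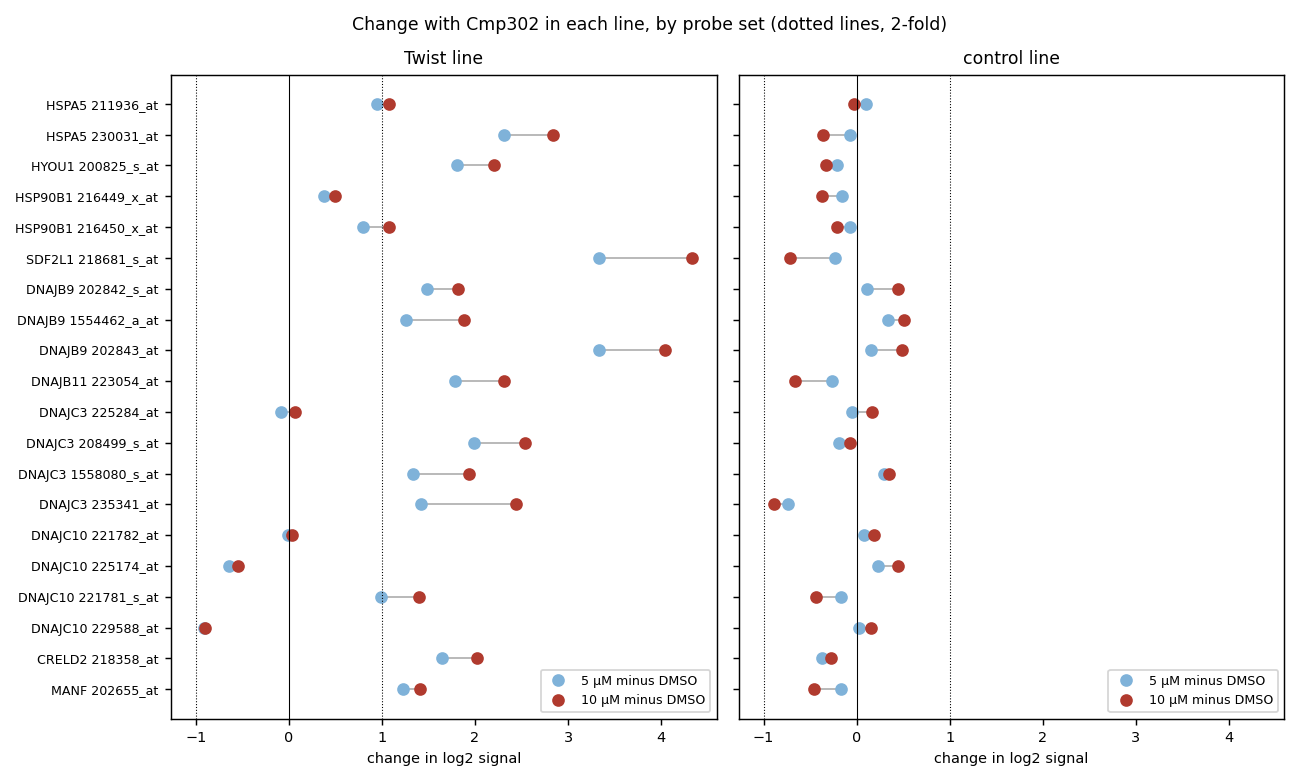
Change in log2 signal with Cmp302 at 5 µM and 10 µM against DMSO in the Twist line and in the control line, 1 row per probe set, with dotted lines at 2-fold. In the Twist line 15 probe sets pass 2-fold at 10 µM and SDF2L1 and DNAJB9 202843_at lie farthest out, while in the control line none passes it.

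Whether the trend differed between the lines was tested directly. The difference of the trends, Twist minus control line, was called for 1 of the 20 probe sets, DNAJC3 235341_at, at 1.66 ± 0.19 per level (SE, limma adjusted p 0.048), against a background of 0.447% called higher. A further 17 had an unadjusted p under 0.05, 18 in all, as did 10866 of all 29283 probe sets tested. After matching on RNA quality, the Twist-line change of DNAJC3 235341_at at 10 µM fell from 2.44 to 1.72, and the part of RNA quality in its difference was not tested. For SDF2L1 the difference was 2.52 ± 0.42 (adjusted p 0.056), for DNAJB11 1.49 ± 0.24 (adjusted p 0.056) and for HYOU1 1.26 ± 0.27 (adjusted p 0.057). For BiP it was 0.55 ± 0.18 (adjusted p 0.092) on 211936_at and 1.60 ± 0.33 (adjusted p 0.057) on 230031_at. These differences were not called. The fit draws a straight line over the levels, and without any 1 of the 6 arrays it called 0 probe sets of any gene. When the compound levels were pooled against DMSO, 13 probe sets of the 10 genes were called higher (background 9.06%) and 2 of DNAJC10 lower (background 10.3%).

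Between the lines under DMSO most members read lower in the Twist line. The difference lay past 2-fold for 9 probe sets of 7 genes, all lower in the Twist line (background 11.9%), and the median of the 20 was -0.88. The widest were DNAJC3 235341_at at -2.18 and 208499_s_at at -2.16, HSPA5 230031_at at -1.98 and SDF2L1 at -1.81. GAPDH was lower as well, with differences from -1.27 to -0.47 over its 6 probe sets. Matched on the 3' to middle contrast, 5 probe sets of 3 genes lay past 2-fold, all lower (background 9.57%, and 10.5% upward), with a median of -0.62. They were HSPA5 230031_at at -1.52, HYOU1 at -1.23 and 3 of DNAJC3 from -2.12 to -1.23, while SDF2L1 stood at -0.93, CRELD2 at -0.76 and MANF at -0.48. At 5 µM the median was 0.08, with 5 probe sets of 3 genes past 2-fold, all higher in the Twist line (background 11.4%). At 10 µM it was 0.77, with 8 probe sets of 6 genes, all higher (background 14.2%). Those were the 3 of DNAJB9 (1.42 to 3.30), SDF2L1 (3.24), DNAJB11 (2.09), CRELD2 (1.28), HSPA5 230031_at (1.23) and DNAJC3 235341_at (1.15). The line term over all 3 treatments recovered 0 of 200 differences of 1 log2 unit in simulated data. Only those 200 probe sets were changed there, whereas the data gave 7620 calls of 29283, so the adjustment was stricter in the simulation. In the data TWIST1 was called by this term at 1.06 (limma adjusted p 0.018). A member the term did not call is still not shown to be equal between the lines. The term was called for DNAJB9 1554462_a_at alone, 1.28 ± 0.31 higher in the Twist line (SE, limma adjusted p 0.032), against a background of 12.9% called higher. That count was 9 genes without the DMSO pair of arrays, in a fit that called 56.2% of all probe sets, 0 without the 5 µM pair (16% of all) and 2 without the 10 µM pair (24.4% of all).

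**Figure D4:**
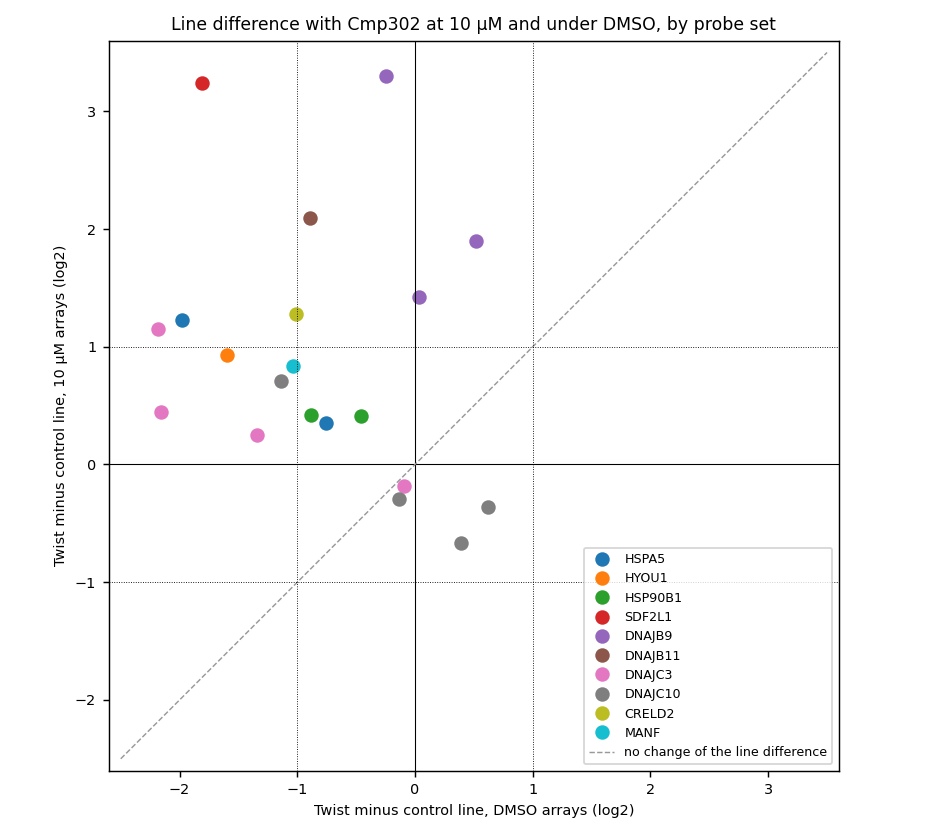
Log2 difference between the Twist line and the control line on the 10 µM arrays (y axis) and on the DMSO arrays (x axis), 1 point per probe set, coloured by gene. Most points lie left of 0 and above the diagonal, that is lower in the Twist line under DMSO and higher or close at 10 µM, whereas DNAJB9 starts near 0 and 3 points of DNAJC10 and 1 of DNAJC3 lie below the diagonal.

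The changes in the Twist line all rest on its single DMSO array, whose 3' to middle contrast was the highest. Set instead against the control-line DMSO array, the Twist-line 10 µM array was past 2-fold for 6 probe sets (background 12.9%), namely the 3 of DNAJB9 (1.85 to 3.78), SDF2L1 (2.52), DNAJB11 (1.43) and CRELD2 (1.00). The 5 µM array was past it for 4 (background 11%), the 3 of DNAJB9 (1.51 to 3.08) and SDF2L1 (1.52). Against that array HSPA5 read 0.32 and 0.86 higher at 10 µM on its 2 probe sets, HYOU1 0.59, MANF 0.37 and HSP90B1 0.04 and 0.20. At 10 µM 3 probe sets lay at or under that array, DNAJC3 225284_at at -0.02, DNAJC10 221782_at at -0.11 and DNAJC10 229588_at at -0.52. At 5 µM 10 did, down to -0.76 for DNAJC3 235341_at, with both of HSP90B1 at -0.08. When each probe set's slope on the quality contrast over the control-line arrays was used to match the arrays, 10 of the 20 were past 2-fold at 5 µM (background 3.39%) and 13 at 10 µM (background 6.63%), all higher, with a median of 1.72 at 10 µM. The background downward was 4.18% and 7.4%. The matched values at 10 µM were 3.66 for SDF2L1, 4.48 for DNAJB9 202843_at, 1.72 for DNAJB11, 1.91 for HYOU1, 1.83 for CRELD2, 0.99 for MANF and 0.16 for HSP90B1 216449_x_at. HSPA5 stood at 1.02 and 2.50 on its 2 probe sets. The slope rests on 3 arrays that also differ in treatment, so a part of RNA quality in these changes cannot be told apart from the treatment.

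**Figure D5:**
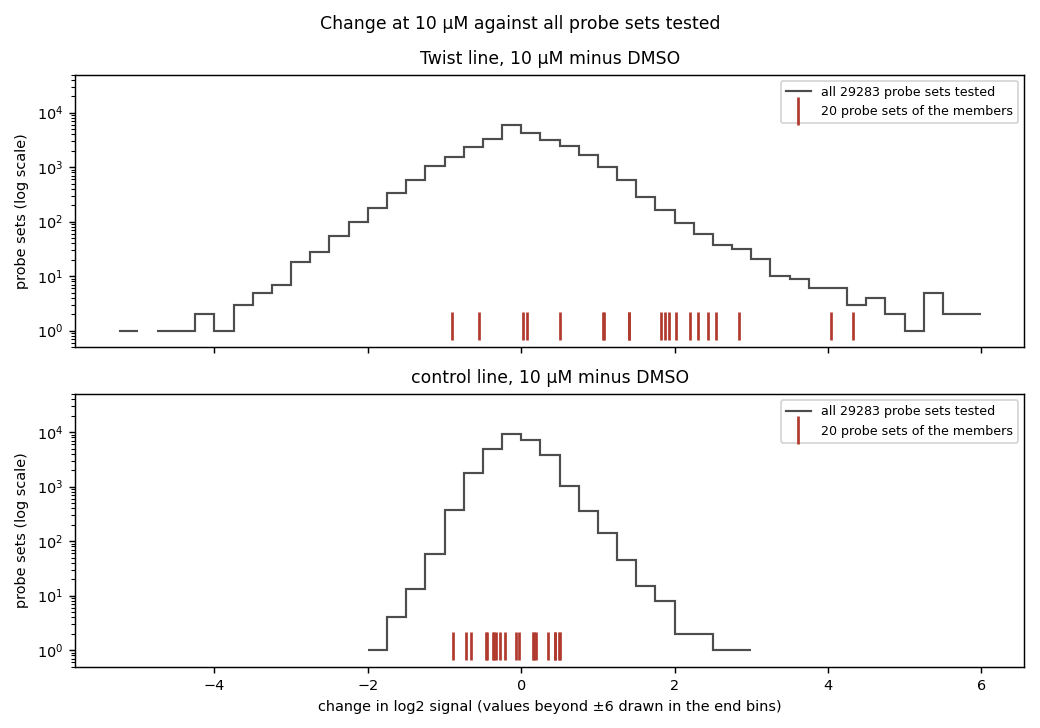
Distribution of the change in log2 signal at 10 µM against DMSO over all probe sets measured, for the Twist line and the control line, with the member probe sets marked along the axis and values beyond the plotted range drawn in the end bins. In the Twist line 15 of 20 members lie past 1 log2 unit, while in the control line all 20 lie within 1 unit of 0.

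Other genes of the pathway were each read by the brightest probe set. On that reading HSP90B1, DNAJC3 and DNAJC10 of the 10 members were not called, and the lists are to be set against all 10 members read in this way. All 12482 genes tested this way gave 9.73% called higher and 10.3% called lower in the Twist-line trend, with a median change at 10 µM of 0. Of the other J-proteins, paralogues and BiP partners, 4 of 11 rose and 1 fell, leaving out FICD. CRELD1, the paralogue of CRELD2, read 4.38, 6.00 and 6.59 in the Twist line and 4.42, 4.28 and 4.35 in the control line (trend 1.11, limma adjusted p 0.018). FICD, the enzyme that adds and removes AMP on BiP, read 3.71, 4.52 and 5.84 in the Twist line and 3.71, the floor, on the control-line arrays. It entered the tests only through the 2 treated Twist-line arrays, with the other 4 at the floor, so its calls are given no weight and its change is a lower bound. SIL1, another nucleotide exchange factor of BiP, was higher by 0.90 at 10 µM (adjusted p 0.048), and the J-proteins DNAJC1 and DNAJC18 by 1.46 and 1.29 (adjusted p 0.018 and 0.023). SDF2, the paralogue of SDF2L1, went the other way, at 10.79, 9.87 and 9.65 in the Twist line and 10.24, 10.37 and 10.30 in the control line, a change of -1.13 at 10 µM (adjusted p 0.035). The rest of this list were not called. Their differences at 10 µM against DMSO were 0.02 for HSPA13, a microsomal HSP70, -0.47 for the translocon J-protein SEC63, 0.40 for DNAJB12, -0.29 for DNAJB14, -0.73 for DNAJC16 and 0.26 for TMEM132A. CDNF, the paralogue of MANF, lay at the floor on all arrays but the Twist-line 10 µM array, at 3.82 there.

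Of the lectin chaperones and disulfide isomerases 8 of 17 rose and 1 fell, with a median of 0.79 at 10 µM. FKBP2, a prolyl isomerase, changed by 1.80, PDIA4 by 1.39, UGGT1, which recognises misfolded glycoproteins, by 1.29 and TXNDC11 by 1.29. The lectin chaperones CALR and CANX stood at 0.08 and 0.20 and were not called. Among KDEL receptors and the sensors and factors of the unfolded protein response, 3 of 13 rose and none fell. ERN1, which encodes the sensor IRE1, changed by 2.43 (limma adjusted p 0.014), CREB3 by 1.29 and DDIT3, the stress factor CHOP, by 5.81 (adjusted p 0.031). ATF4 stood at 1.10 with an adjusted p of 0.054, and XBP1, whose splicing these signals do not show, by 0.46 (adjusted p 0.15). In ER-associated degradation 4 of 14 rose and 2 fell, with HERPUD1 at 2.55, SELENOS at 1.38, OS9 at 1.09 and EDEM3, a mannosidase, at -1.68. Of cytosolic and mitochondrial HSP70, HSP90 and HSP40 genes 4 of 17 rose and 1 fell, with DNAJB2 at 1.74, DNAJA3 at 1.32, DNAJC7 at 1.11 and DNAJB1 at 1.08, and a median of 0.11. The GAPDH and ACTB changes given above apply to all of these lists.

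Read by the brightest probe set, 8 of the 10 genes followed the mean profile of the members, and DNAJC3 and DNAJC10 did not. The mean of the 10 brightest probe sets, each centred on its own mean, was -0.81, 0.44 and 0.77 in the Twist line and -0.03, -0.15 and -0.24 in the control line. Correlation with that mean over the 6 arrays was 0.993 for SDF2L1 and CRELD2, 0.966 for DNAJB11, 0.958 for MANF, 0.943 for HYOU1, 0.895 for HSPA5, 0.87 for DNAJB9 and 0.848 for HSP90B1. It was -0.158 for DNAJC3 and -0.242 for DNAJC10. Each member is part of the mean, and all points share the same 6 arrays. Among 4657 other genes with a range of at least 1 log2 unit, those most like this mean were MOCOS (0.999), UGGT1 (0.998), ANKRD11 (0.995), ZFAS1 (0.995) and DTX2P1-UPK3BP1-PMS2P11 (0.994).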

How the data were processed

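Each of the 6 samples was hybridised to 1 array. The deposited values are taken as log2 signals from their range and distribution, since the labels name no unit. Per the submitters' processing notes GCOS 1.2 was used, with background correction, normalisation and summarisation not given in the sources used here. Deposited log2 medians ran from 3.69 to 3.74. Precision is limited by the number of arrays.

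Of 54675 probe sets 62 controls were left out. Arrays were aligned on their median log2 difference from the mean array (offsets -0.03 to 0.01), and values under 3.71, the 50th percentile, were set to that floor. Genes were named from the platform annotation, in which 41091 probe sets had 1 symbol, 1801 several and 11721 none. Probe sets above the floor on at least 2 arrays, 29283 in all, were tested in limma 3.58.1 (R 4.3.3), with eBayes following the signal level and p-values adjusted by Benjamini and Hochberg's method at 0.05. One fit had line and level within line, coded 0, 1 and 2, and gave the trends and their difference. The other had treatment and line. Both leave 2 residual degrees of freedom and were tested on simulated data. Of 200 simulated steps of 1 log2 unit, the Twist-line trend recovered 198, the difference of trends 171 and the line term 0. Of 200 steps of 2 units the line term recovered 199, so in that setting it can miss a 2-fold line difference. Each simulation changed only 200 probe sets, whereas the data gave 5884 calls for the Twist-line trend and 7620 for the line term. The adjustment was thus stricter than in the data for these 2 terms, and the recoveries do not carry over directly. Nothing in the labels says the cultures were repeated, so p-values rest on departures from these fits. A change between 2 arrays carries no p.

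Linear signal had been assumed in the design, but scaling and floor were applied in log2 units. The members and the 8 lists (109 symbols, 99 matched) were chosen with earlier results of these data known, so no count here is independent support. Named genes are all members on every probe set, all of the list of J-proteins, paralogues and partners, the 4 widest changes of each other pathway list, the 5 genes of most like profile and a few reference genes; CALR, CANX, FABP4 and other marker genes were added after their values were seen. Alternatives covered scaling, floor, filter, probe set choice, level coding and leaving out each array or pair. The comparison with the control-line DMSO array and the quality-matched line difference were chosen after seeing the data.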

Additional observations from a re-analysis of the deposited data

Results flagged for a closer look

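DNAJC3 235341_at drew attention because its trend with Cmp302 differed between the lines by 1.66 log2 units per level, Twist minus control line (limma adjusted p 0.048), past the threshold in the test of the difference itself. Its slope on the RNA quality contrast, -1.4, was the steepest among the member probe sets. Matched on that contrast, its Twist-line change against DMSO fell from 1.42 to 0.58 at 5 µM and from 2.44 to 1.72 at 10 µM. The part of RNA quality in the difference was not tested. Its signal was among the dimmer ones, and the floor at the 65th percentile moved the difference to 1.03 (adjusted p 0.053). The adjusted p ran from 0.0065 with no floor to 0.55 without the control-line DMSO array.

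A probe set outside the comparisons, 200598_s_at, annotated to MIR3652 and HSP90B1 together, read 11.30, 12.79 and 13.19 in the Twist line and 12.34, 12.13 and 12.21 in the control line. Its change at 10 µM against DMSO in the Twist line was 1.89, above the -0.12 of the control line. The other probe set with both symbols, 200599_s_at, stood at 0.34 in the Twist line and 0.11 in the control line.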

How the results depend on the processing

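No paired analysis was possible because each group holds 1 array and the labels give no replicate numbers. The line term compares the lines within each treatment, which matches treatments and not replicates. Leaving out 1 array leaves 1 residual degree of freedom, and the lone arrays are assumed to vary like the rest. The genes called in the Twist-line trend ranged from 0 to 9 with 1 array left out, against 10 with all. They were 0 with no filter and 6 without probe sets that carry a suffix such as _s, _x or _a. That last setting left no probe set of HYOU1, SDF2L1 or HSP90B1 to test, so these could not be called. Other scalings, floors and codings gave a count within 1.5 times of 10. The control-line trend gave 0 throughout. The difference of trends, called for 1 gene, was called for 0 after quantile normalization, on the deposited scale, with a floor at the 35th percentile or the 65th, with no filter, genes read by the brightest or median probe set, no signal trend in eBayes, and any 1 array left out, and for 10 with no floor or with levels coded 0, 1 and 1. The line difference, called for 1 gene, ranged from 0 to 9 with a treatment pair left out and was 0 with no filter, by the brightest probe sets and without the suffixed ones.

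Of changes past 2-fold, the brightest probe set of each gene gave 6 genes at 5 µM and 7 at 10 µM in the Twist line and 4 lower than the control line under DMSO. Among 11935 genes read this way, 959 were higher and 1012 lower past 2-fold at 10 µM in the Twist line. The like shares by gene at 5 µM and under DMSO are not given here. Matched on RNA quality, 5 probe sets were lower under DMSO. Against the control-line DMSO array the Twist-line counts were 4 probe sets (2 genes) at 5 µM and 6 (4 genes) at 10 µM. Over all probe sets the Twist-line trend was called for 5884, against 38 with no filter and 0 without most single arrays. The difference was called for 263, against 0 with the floor at the 65th percentile or no signal trend, 1 with the deposited scaling, 32 at the 35th percentile, 44 with no filter, 91 after quantile normalization, 4838 with no floor and 5669 coded 0, 1 and 1. The line term was called for 7620, against 2927 with no filter, 4528 at the 65th percentile, 4686 without the 5 µM pair and 16456 without the DMSO pair.

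Reversals fell on the split genes alone. By the median over probe sets the difference of trends was 0.91 for DNAJC10 and 1.05 for DNAJC3, against -0.08 and -0.05 on 221782_at and 225284_at. The Twist-line trend of DNAJC3 225284_at was -0.01 coded 0, 1 and 1. With 1 array left out, the Twist-line trend ran from -0.09 to 0.16 for that probe set, from -0.01 to 0.04 for DNAJC10 221782_at, from -0.64 to 0.10 for 225174_at and from -0.91 to 0.01 for 229588_at, and the difference of trends for DNAJC3 225284_at from -0.18 to 0.09. The cause was not tested.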
